A study of Caenorhabditis elegans with 14 samples.

Results

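The yolk genes of *C. elegans* were followed in 14 RNA-seq libraries of whole day 1 adult worms. The members were 7 of the 21982 genes listed in the count table, chosen by WormBase symbol as the vitellogenins *vit-1* to *vit-6* and the yolk receptor *rme-2*. L4 animals had been exposed for 16 h to *E. faecalis* OG1RF, a Gram-positive pathogen of the worm intestine, or to *E. coli* OP50, the standard laboratory food. Per the study's methods, *E. faecalis* was on BHI agar with gentamycin, and *E. coli* is described on nematode growth agar for maintenance. Plate and bacterium therefore cannot be told apart. The study also speculates that germline development is slower on *E. faecalis*, which was not tested here. The groups were *skpo-1* worms on *E. faecalis* (4 libraries), *skpo-1* worms on *E. coli* (3), N2 worms on *E. faecalis* (3) and N2 worms on *E. coli* (4). N2 is the wild type. The mutant, strain GF89, carries the deletion allele *ok1640* of the peroxidase gene *skpo-1* and is known to be dumpy with incomplete penetrance and to have fewer offspring. It is 1 strain, so other differences between GF89 and N2 cannot be told apart from the deletion. The labels call the libraries biological replicates.

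Yolk is a lipoprotein that feeds the embryo. Vitellogenins are made in the intestine of the adult hermaphrodite, loaded with lipid and secreted into the body cavity. *vit-1* and *vit-2* encode 1 type of large yolk polypeptide and *vit-3*, *vit-4* and *vit-5* another, while the *vit-6* product is cleaved into smaller chains. Oocytes take yolk up by clathrin-mediated endocytosis through RME-2, a member of the LDL receptor superfamily. The yolk genes are therefore read out in one tissue and the receptor in another, and in RNA of whole worms fewer cells of a type and less RNA per cell cannot be told apart.

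All 7 genes are annotated as protein-coding in WBcel235, and 5 of them lie on chromosome X. *vit-1* (WBGene00006925) spans 7727889 to 7733168 and *vit-2* (WBGene00006926) spans 5101042 to 5106169, both on the plus strand with 5 exons. *vit-4* (WBGene00006928, 3558769 to 3563965) and *vit-3* (WBGene00006927, 3567355 to 3572549) are neighbours on the minus strand, each with 6 exons, and 3389 bases separate them. *vit-5* (WBGene00006929) lies at 3403471 to 3408603 on the plus strand and also has 6 exons. *vit-6* (WBGene00006930, 8261157 to 8266459, 5 exons) and *rme-2* (WBGene00004374, 5470026 to 5473174, 7 exons) are on the plus strand of chromosome IV. The vitellogenin genes are close in exon length, 4870 to 5088 bases, and *rme-2* is shorter, at 2867 bases. *vit-3* and *vit-4* are near-identical copies, and so to a lesser degree are *vit-1* and *vit-2*, so the split of reads inside each pair depends on the authors' quantification and is uncertain.

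The libraries held 15174830 to 36682565 counts on genes. All 7 members passed the filter on low counts, as did 15685 genes in all. *skpo-1* itself had 1.62 to 2.26 CPM (counts per 1e6, scaled by library size and edgeR's TMM factor) in *skpo-1* worms on *E. faecalis* and 2.35 to 2.66 CPM in *skpo-1* worms on *E. coli*. It had 112 to 199 CPM in N2 on *E. faecalis* and 283 to 314 CPM in N2 on *E. coli*, so every library matched its genotype label. N2 on *E. coli* replicate 2 stood apart from its group, with chi-square values per degree of freedom of 357 to 422 against its 3 group mates, where the 18 pairs of replicates ranged from 7.84 to 422. Results that rest on this library are given with and without it.

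Yolk protein transcripts were among the most abundant in the worm in every group, and their total varied several-fold between replicates. The 6 vitellogenin genes took 7.05, 9.66, 10.2 and 3.49% of all counts in the *skpo-1* libraries on *E. faecalis*, against 11.4, 14.3 and 10.8% in those on *E. coli*. Every *skpo-1* library on *E. faecalis* lay below every one on *E. coli*. In N2 worms the shares were 10.3, 6.74 and 2.95% on *E. faecalis*, against 12.9, 3.11, 10.2 and 12.9% on *E. coli*. The N2 groups overlapped, since replicate 2 on *E. coli* was as low as the lowest library on *E. faecalis*, and without it the remaining 3 libraries on *E. coli* (10.2 to 12.9%) still reached down to the 10.3% of the highest library on *E. faecalis*. Mean shares were 7.60 ± 3.07% (SD, n = 4) for *skpo-1* on *E. faecalis*, 12.2 ± 1.88% (n = 3) for *skpo-1* on *E. coli*, 6.66 ± 3.68% (n = 3) for N2 on *E. faecalis* and 9.76 ± 4.61% (n = 4) for N2 on *E. coli*. Counting error was small beside this spread. The lowest share, 2.95%, had an exact 95% binomial interval of 2.94 to 2.95%, which covers counting error only. No test was run on the sum.

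**Figure D1:**
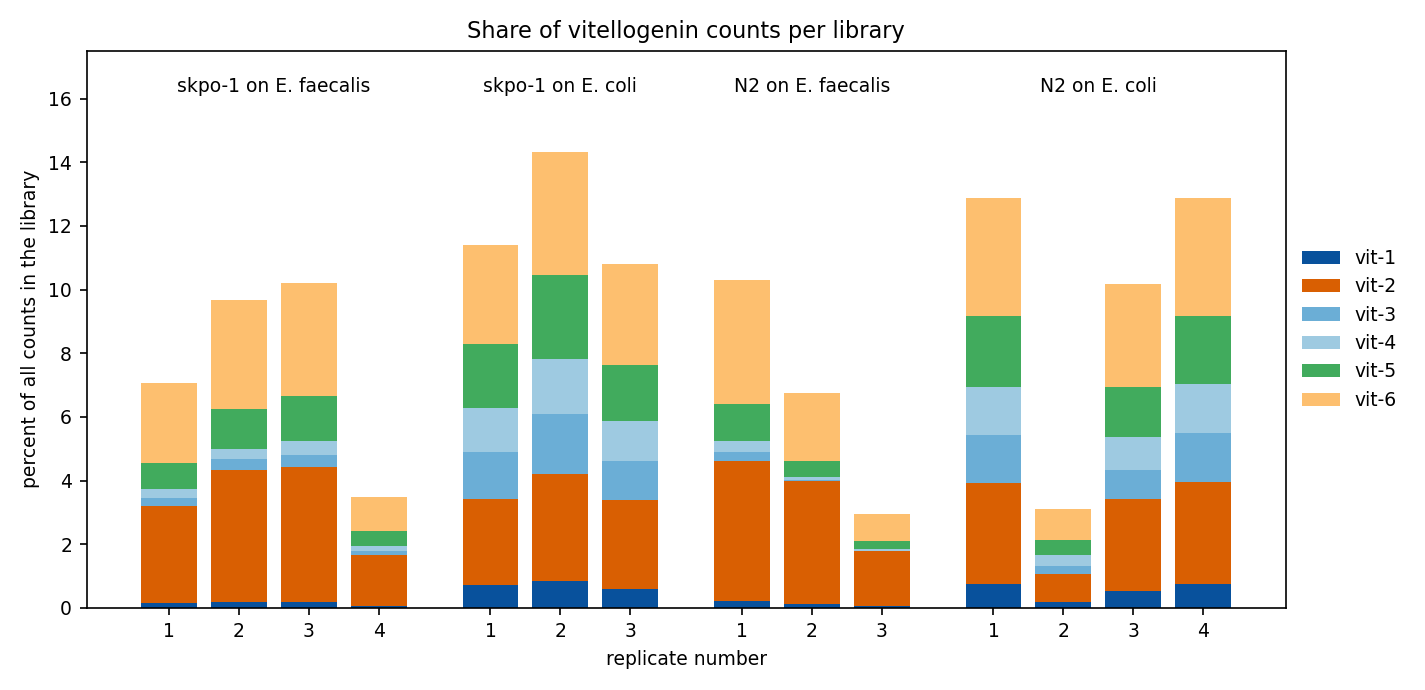
Stacked bars give the percentage of all counts in each library that fell on *vit-1* to *vit-6*, 1 bar per replicate, grouped by genotype and bacterium. Bars run from 2.95 to 14.3%, and the blue segments (*vit-1*, *vit-3* and *vit-4*) are thin in all 7 libraries on *E. faecalis* and in N2 on *E. coli* replicate 2.

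Transcript abundance was next compared between members per length, as TPM, the counts divided by exon length and scaled to a common sum, for each library. *vit-2* and *vit-6* were the most abundant members, with ranges that overlapped in every group. On *E. faecalis*, *vit-2* had the most counts of any gene in all 7 libraries, with 8919 ± 3776 TPM (SD, n = 4) in *skpo-1* and 9240 ± 4413 TPM (n = 3) in N2. On *E. coli*, *vit-6* was first by counts in 6 of 7 libraries and second in N2 replicate 2. *vit-6* had 7053 ± 3327 TPM in *skpo-1* worms on *E. faecalis*, against 9940 ± 1915 TPM in *skpo-1* worms on *E. coli*. In N2 it had 6292 ± 4498 TPM on *E. faecalis*, against 8245 ± 4227 TPM on *E. coli*. Below *vit-2* and *vit-6* the mean order on *E. faecalis* was *vit-5* (2759 TPM in *skpo-1*, 1812 TPM in N2), *vit-4* (827 and 473 TPM) and *vit-3* (733 and 335 TPM). *vit-1* and *rme-2* lay in the same range as *vit-3*, at 386 and 524 TPM in *skpo-1* and 374 and 444 TPM in N2, and their ranges overlapped with it. On *E. coli* *vit-5* again came next after these (6555 TPM in *skpo-1*, 4753 TPM in N2). *vit-3* (4602 and 3086 TPM) and *vit-4* (4395 and 3206 TPM) were within each other's spread there, *vit-1* followed with 2080 and 1551 TPM, and *rme-2* was lowest with 715 and 593 TPM. For each gene but *vit-2* the mean CPM was highest in *skpo-1* on *E. coli*, then N2 on *E. coli*, *skpo-1* on *E. faecalis* and N2 on *E. faecalis*, and libraries overlapped between each group and the next in this order. N2 replicate 2 was the lowest library on *E. coli* for each of these genes. The other N2 libraries on *E. coli* had 36999 to 44629 CPM of *vit-6* and 1596 to 1693 CPM of *rme-2*. The *skpo-1* means on *E. coli* were 38414 and 1570 CPM, so for both genes their place above N2 rested on that library.

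*vit-3* and *vit-4*, which encode 1 type of yolk polypeptide together with *vit-5*, were the members with the largest fitted falls on *E. faecalis* in N2. *vit-3* had 2094, 3096, 3630 and 976 CPM in the *skpo-1* libraries on *E. faecalis*, against 16641, 22207 and 13110 CPM in those on *E. coli*. The *skpo-1* groups did not overlap, and the fitted level on *E. faecalis* was 0.141 of that on *E. coli* (log2 fold change -2.82, SE 0.75, adjusted p = 0.0200, from edgeR's quasi-likelihood test, adjusted over all 15685 genes after Benjamini-Hochberg). In N2, *vit-3* had 2682, 412 and 274 CPM on *E. faecalis*, against 17571, 2424, 10299 and 18666 CPM on *E. coli*. Replicate 1 on *E. faecalis* and replicate 2 on *E. coli* met in the middle, so the N2 groups overlapped, and the fitted level was 0.0917 of that on *E. coli* (log2 fold change -3.45, SE 0.84, adjusted p = 0.00657, edgeR).

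*vit-4* had 2601, 3020, 4238 and 1205 CPM in *skpo-1* worms on *E. faecalis*, against 15617, 20688 and 13397 CPM in *skpo-1* worms on *E. coli*. As for its neighbour, the *skpo-1* groups did not overlap, with a log2 fold change of -2.58 (SE 0.68, adjusted p = 0.0185, edgeR). N2 worms had 3602, 622 and 549 CPM on *E. faecalis*, against 17827, 2822, 11975 and 18300 CPM on *E. coli*. The N2 groups overlapped through the same libraries as for *vit-3*, and the fitted level was 0.125 of that on *E. coli* (log2 scale SE 0.74, adjusted p = 0.00713, edgeR). With the counts of both copies summed, which removes the uncertain split, the log2 fold changes were -2.70 (adjusted p = 0.0189) in *skpo-1* and -3.20 (adjusted p = 0.00685) in N2 by edgeR's test. The calls in N2 held with any of the 14 libraries left out, whereas those in *skpo-1* were lost when *E. faecalis* replicate 4 (adjusted p = 0.0538 for *vit-3* and 0.0510 for *vit-4*, edgeR), *E. coli* replicate 1 (0.0590 and 0.0555) or *E. coli* replicate 2 (0.0645 and 0.0609) was left out.

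The pair *vit-1* and *vit-2*, which encode the other large polypeptide, differed in their fitted response, with the split of reads between them uncertain. *vit-1* had 1357, 1603, 1910 and 463 CPM in *skpo-1* worms on *E. faecalis*, against 8053, 9941 and 6288 CPM in *skpo-1* worms on *E. coli*. All 4 libraries on *E. faecalis* lay below those on *E. coli*, with a log2 fold change of -2.60 (SE 0.57, adjusted p = 0.00781, edgeR). In N2 it had 2201, 1058 and 630 CPM on *E. faecalis*, against 8688, 1501, 6046 and 9172 CPM on *E. coli*. Replicate 2 alone on *E. coli* reached into the range seen on *E. faecalis*, and the fit gave a log2 fold change of -2.29 (SE 0.61, adjusted p = 0.0100, edgeR). The call in *skpo-1* held with any library left out. The call in N2 was lost without *E. faecalis* replicate 2 (log2 fold change -2.17, adjusted p = 0.0502, edgeR) or replicate 3 (-1.96, 0.0505).

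*vit-2* had 27017, 39510, 40863 and 12001 CPM in *skpo-1* worms on *E. faecalis*, against 31112, 40138 and 29563 CPM in *skpo-1* worms on *E. coli*. The groups overlapped and the difference did not pass the test (log2 fold change -0.17, 95% interval -1.28 to 0.94, adjusted p = 0.830, edgeR). N2 libraries had 42790, 34765 and 15330 CPM on *E. faecalis*, against 37891, 7878, 33081 and 38266 CPM on *E. coli*. These also overlapped, and the difference did not pass (0.08, 95% interval -1.03 to 1.19, adjusted p = 0.913, edgeR). Each interval reaches beyond 1 log2 unit, so *vit-2* was not shown to be equal on the bacteria. With any 1 library left out, N2 on *E. coli* replicate 2 included, the log2 fold change in N2 ran from -0.26 to 0.41 and was never called. With the counts of the pair summed, which removes the uncertain split, the difference did not pass (log2 fold change -0.42 in *skpo-1*, adjusted p = 0.574, and -0.14 in N2, adjusted p = 0.844, edgeR). *vit-2* made up most of that sum, which therefore could not show a change in *vit-1* alone. The fall of *vit-1* thus rests on the split of reads.

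**Figure D2:**
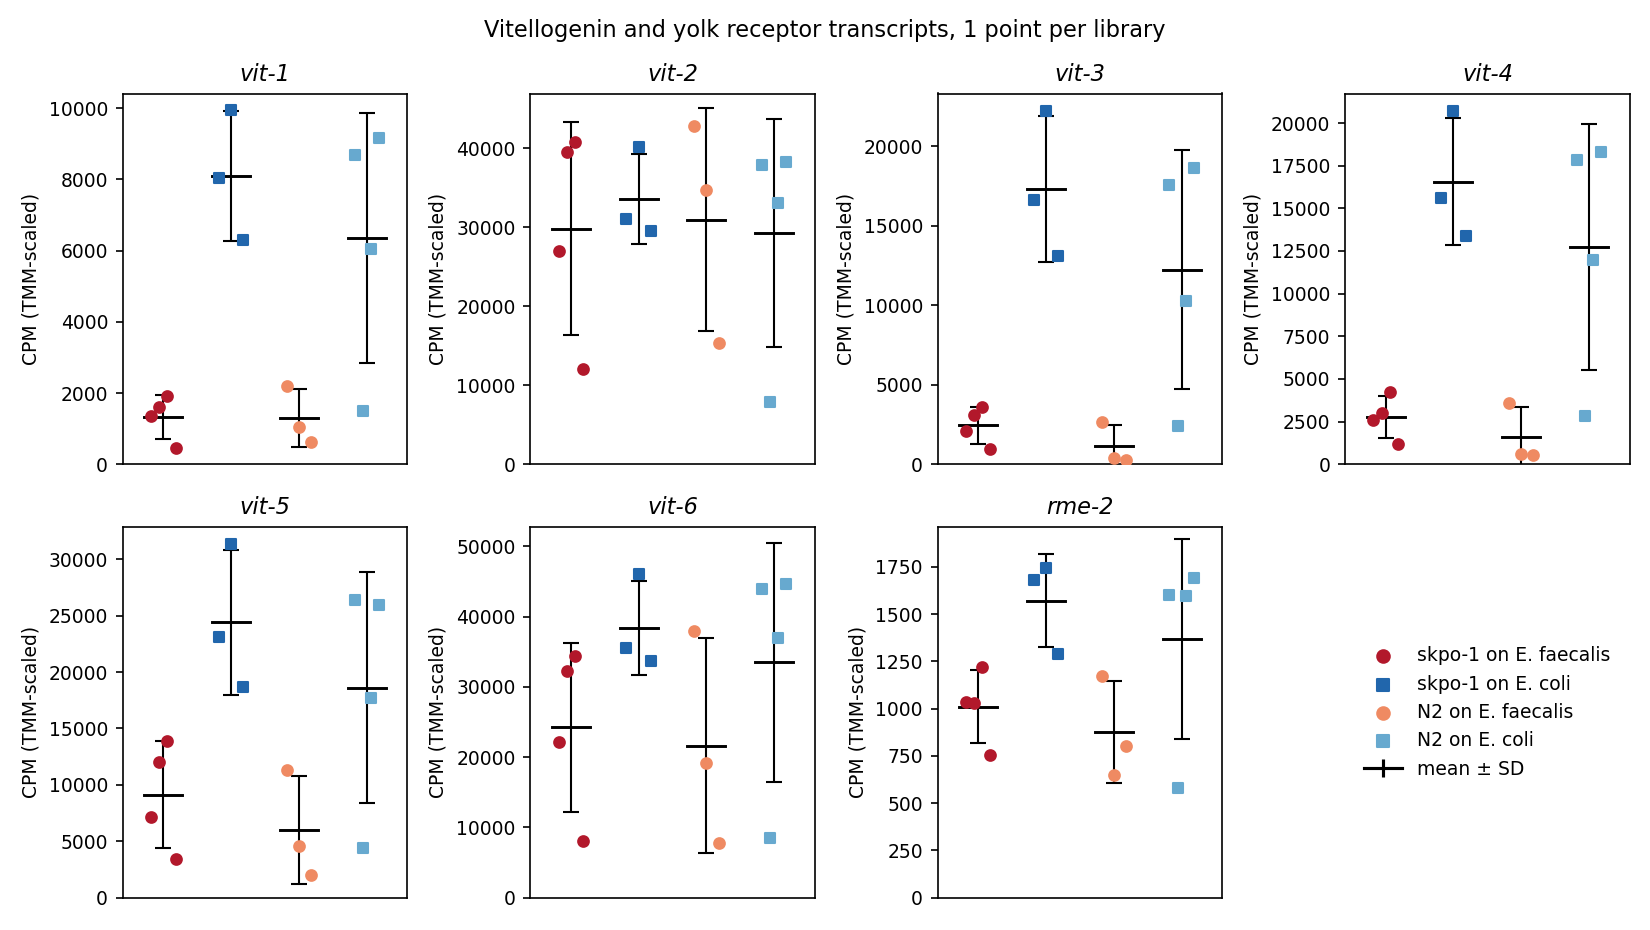
Each point is the CPM of 1 library, with the group mean and SD as a bar and whiskers, in 1 panel per gene on its own linear axis from 0. *vit-1*, *vit-3* and *vit-4* are low on *E. faecalis* (circles) and high on *E. coli* (squares) apart from N2 on *E. coli* replicate 2, while the groups overlap for *vit-2* and *vit-6*.

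*vit-5*, the remaining gene of the *vit-3* type, lay between these patterns. It had 7152, 12000, 13899 and 3452 CPM in *skpo-1* worms on *E. faecalis*, against 23121, 31341 and 18711 CPM in *skpo-1* worms on *E. coli*. The *skpo-1* groups did not overlap, but the fitted difference did not pass (log2 fold change -1.42, SE 0.61, adjusted p = 0.106, edgeR). In N2 it had 11316, 4604 and 2053 CPM on *E. faecalis*, against 26370, 4427, 17732 and 25963 CPM on *E. coli*. Replicate 2 on *E. coli* fell inside the *E. faecalis* range, and the difference did not pass (-1.64, SE 0.65, adjusted p = 0.0584, edgeR). Without that library *vit-5* was called in both genotypes, with a log2 fold change of -1.99 and adjusted p = 0.0125 in N2, and with adjusted p = 0.0427 in *skpo-1* (edgeR), whose own libraries were the same.

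*vit-6*, whose product is cleaved into the smaller yolk chains, had 22236, 32270, 34453 and 8107 CPM in *skpo-1* worms on *E. faecalis*, against 35527, 46041 and 33674 CPM in *skpo-1* worms on *E. coli*. Replicate 3 on *E. faecalis* just overlapped replicate 3 on *E. coli*, and the difference did not pass (log2 fold change -0.66, 95% interval -1.93 to 0.60, adjusted p = 0.426, edgeR). N2 had 37993, 19126 and 7747 CPM on *E. faecalis*, against 43973, 8526, 36999 and 44629 CPM on *E. coli*. The N2 groups overlapped, with a log2 fold change of -0.63 (95% interval -1.92 to 0.66, adjusted p = 0.419, edgeR). Without replicate 2 on *E. coli* they met only through replicate 1 on *E. faecalis* (37993 CPM, against 36999 CPM in replicate 3 on *E. coli*). With any 1 library left out, the log2 fold change in N2 ran from -1.34 to -0.23 and was never called.

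The receptor gene *rme-2*, expressed in oocytes, had 1033, 1031, 1222 and 752 CPM in *skpo-1* worms on *E. faecalis*, against 1681, 1742 and 1288 CPM in *skpo-1* worms on *E. coli*. All *skpo-1* libraries on *E. faecalis* lay below those on *E. coli*, with a fitted log2 fold change of -0.64 (SE 0.32, adjusted p = 0.152, edgeR) that did not pass the test. In N2 it had 1174, 649 and 803 CPM on *E. faecalis*, against 1600, 579, 1596 and 1693 CPM on *E. coli*. The lowest of all 14 values belonged to N2 on *E. coli* replicate 2, and the fit again gave -0.64 (SE 0.32, adjusted p = 0.126, edgeR). Without that library it was -0.92 in N2 (adjusted p = 0.00516, edgeR) and -0.66 in *skpo-1* (adjusted p = 0.0228), below the threshold of p but still short of the fold required for a call. *rme-2* varied less than its ligands, with a mean of 1010 ± 193 CPM (SD, n = 4) for *skpo-1* on *E. faecalis*, 1570 ± 246 CPM (n = 3) for *skpo-1* on *E. coli*, 875 ± 270 CPM (n = 3) for N2 on *E. faecalis* and 1367 ± 527 CPM (n = 4) for N2 on *E. coli*. Per length, the vitellogenin total was 19.1 to 56.5 times the level of *rme-2* across the 14 libraries.

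**Figure D3:**
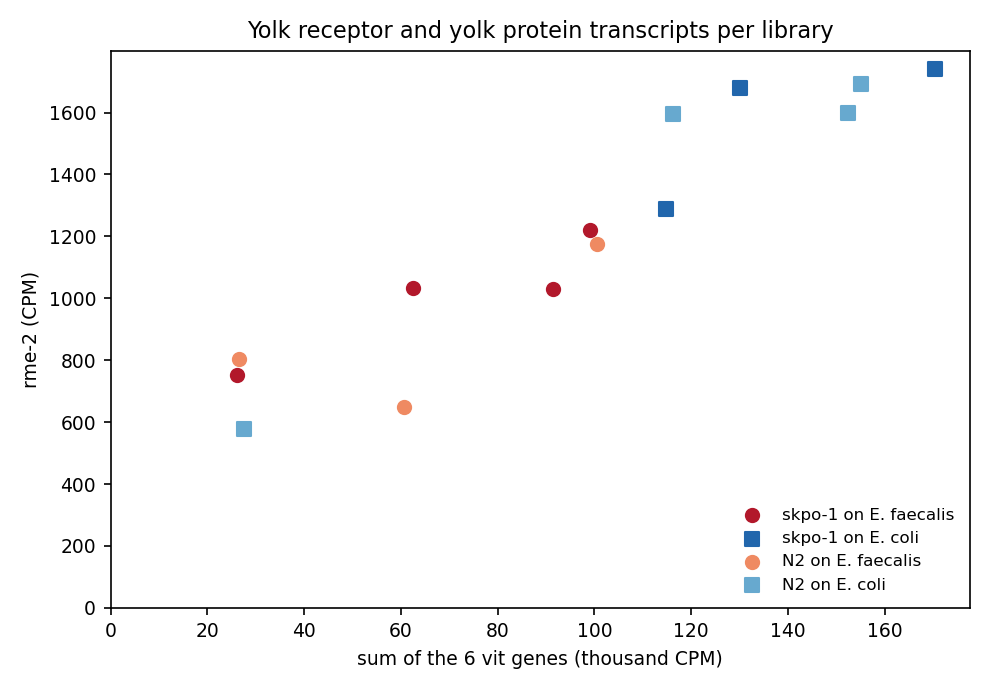
Each point is 1 library, with the summed CPM of *vit-1* to *vit-6* on the x axis (CPM divided by 1e3) and the CPM of *rme-2* on the y axis, both linear from 0. Libraries low in yolk transcripts were low in *rme-2*, and N2 on *E. coli* replicate 2 (579 CPM of *rme-2*) sits with the lowest libraries on *E. faecalis*.

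Read against all genes, 3 of the 7 members (*vit-1*, *vit-3* and *vit-4*) were called lower on *E. faecalis* in each genotype. With the near-identical copies summed, *vit-3* and *vit-4* together were called lower in each genotype, and *vit-1* and *vit-2* together were not. A gene was called when its adjusted p was under 0.05 and its log2 fold change was 1 or more in size. Of all 15685 genes tested, 1.76% were called lower in *skpo-1* and 4.10% in N2, and no member was called higher. The median log2 fold change of the members was -1.42 in *skpo-1* and -1.64 in N2, beside 0.12 and 0.03 over all genes tested. In *skpo-1*, 5 of the 7 members (*vit-1*, *vit-3*, *vit-4*, *vit-5* and *rme-2*) had groups that did not overlap, all lower on *E. faecalis*, where 45.7% of all genes did not overlap in either direction. In N2 this held for 0 of the 7, where 37.5% of all genes did not overlap. Without N2 on *E. coli* replicate 2 it held in N2 for the same 5 genes, all lower, where 58.4% of all genes did not overlap.

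**Figure D4:**
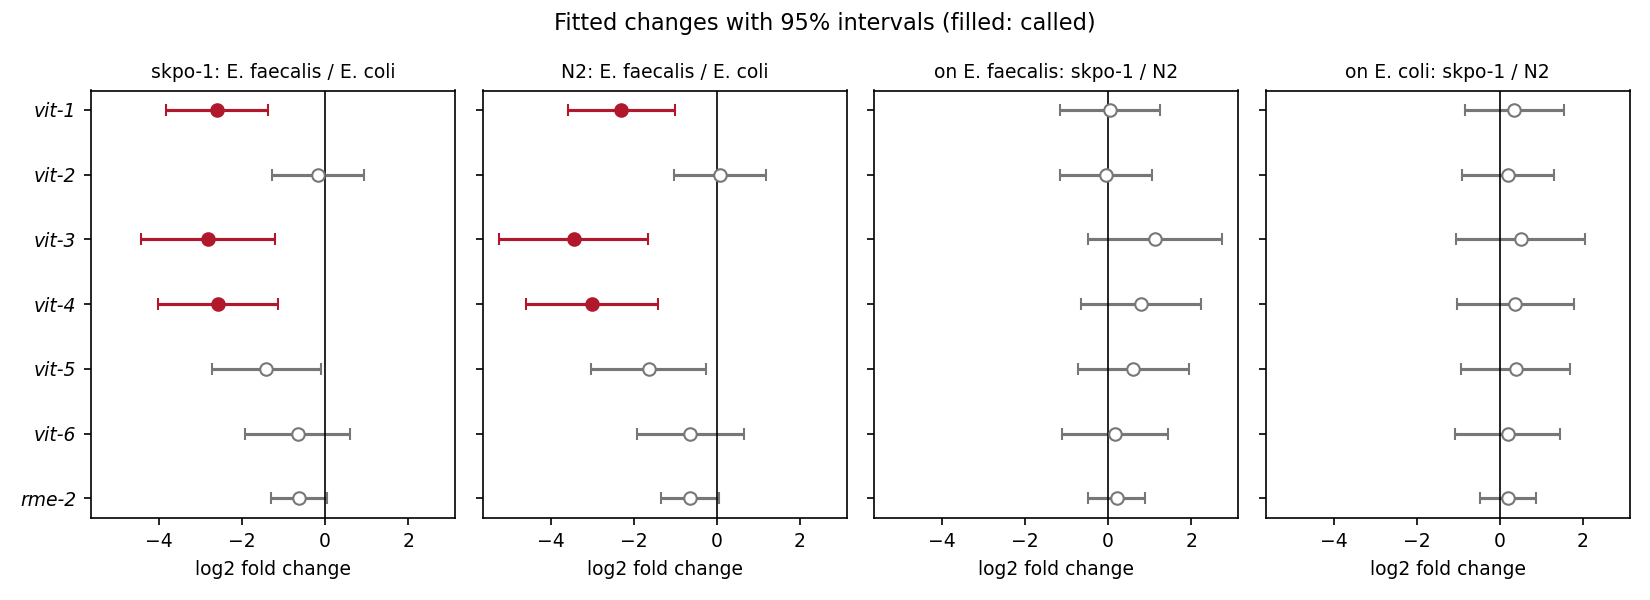
Points are fitted log2 fold changes with 95% intervals for *E. faecalis* over *E. coli* in each genotype and for *skpo-1* over N2 on each bacterium, with filled points for called genes. *vit-1*, *vit-3* and *vit-4* are filled in the panels of both responses, and every interval in the genotype panels spans 0.

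Whether the mutant differed from N2 was asked on each bacterium. On *E. faecalis*, *vit-3* had the largest fitted difference, with 2449 ± 1170 CPM in *skpo-1* (SD, n = 4) and 1123 ± 1352 CPM in N2 (n = 3), a log2 fold change of 1.13 (SE 0.75, 95% interval -0.48 to 2.73, adjusted p = 0.727, edgeR). *vit-4* (log2 fold change 0.80) and *vit-5* (0.61) followed, and *rme-2* was at 0.21. None of the 7 members was called by edgeR's test or by DESeq2, and 0 had an unadjusted p below 0.05. Of all genes, 0.108% were called by edgeR. None of the members had groups that did not overlap, where 8.97% of all genes did. Without N2 on *E. faecalis* replicate 1, *vit-3* and *vit-4* were higher in every *skpo-1* library than in the 2 N2 libraries left, as 34.1% of all genes then differed without overlap. On *E. coli* the log2 fold changes of the members ran from 0.20 to 0.50, and none was called or had an unadjusted p below 0.05 (adjusted p from 0.873 to 0.939, edgeR), where 0.644% of all genes were called and 8.43% did not overlap, against 0 of the 7 members. N2 replicate 2 was the lowest library on *E. coli* for every member. With 1 library left out, the log2 fold change fell as low as 0.003 for *vit-1*, 0.14 for *vit-3*, 0.03 for *vit-4* and 0.04 for *vit-5*. It fell below 0 for *vit-2* (-0.13), *vit-6* (-0.14) and *rme-2* (-0.07).

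The response of the mutant minus that of N2 was tested directly. This difference ran from -0.31 for *vit-1* to 0.62 for *vit-3* (95% interval -1.60 to 2.85) on the log2 scale, and 0% of all genes, the members included, were called by edgeR's test. At an unadjusted p below 0.05 there were 1216 genes, and DESeq2 called 55, none of them a member. The intervals of every member but *rme-2* hold differences of more than 1 log2 unit, so the responses of the genotypes were not shown to be alike.

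The composition of the vitellogenin transcripts separated the bacteria more sharply than their total did. The ratio of *vit-3* and *vit-4* together to *vit-2*, per length, was 0.174, 0.155, 0.193 and 0.182 in *skpo-1* worms on *E. faecalis*, against 1.04, 1.07 and 0.897 in *skpo-1* worms on *E. coli*. In N2 it was 0.147, 0.030 and 0.054 on *E. faecalis*, against 0.935, 0.666, 0.674 and 0.967 on *E. coli*. No library on *E. faecalis* reached the range of those on *E. coli* in either genotype. N2 on *E. coli* replicate 2, which had the lowest vitellogenin share of its group, had a ratio of 0.666, beside 0.674 in replicate 3 with a share of 10.2%. Replicates 1 and 4 of that group, each with a share of 12.9%, had 0.935 and 0.967. In both groups on *E. coli* the ratio thus fell in the order of the share. In N2 on *E. faecalis* the library with the highest share, 10.3%, also had the highest ratio, 0.147. *skpo-1* on *E. faecalis* replicate 4, with a share of 3.49%, had a ratio of 0.182, inside the range of its group.

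The same held for the other members of the family. Per length, *vit-1* was 0.030 to 0.050 of *vit-2* in the 7 libraries on *E. faecalis* and 0.177 to 0.251 in the 7 on *E. coli*. This ratio is itself the uncertain split of reads inside that pair. *vit-5* was 0.134 to 0.345 of *vit-2* on *E. faecalis* and 0.543 to 0.791 on *E. coli*. For *vit-6* the values were 0.492 to 0.865 on *E. faecalis* and 1.05 to 1.14 on *E. coli*. *vit-2* thus made up 41.6 to 58.1% of all vitellogenin transcripts on *E. faecalis*, against 23.7 to 28.8% on *E. coli*. All 5 other vitellogenin genes had a lower ratio to *vit-2* in every library on *E. faecalis* than in any on *E. coli*, in both genotypes, where 3.05% of the 15684 other genes did so in *skpo-1* and 2.79% in N2. *rme-2* did not. These ratios were chosen after the values had been seen, with the member of the smallest fitted change as denominator, and are given with no test. Between libraries on 1 bacterium the other vitellogenin genes varied with *vit-2* (r of log2 CPM 0.604 to 0.961 on *E. faecalis*, 0.971 to 0.9998 on *E. coli*). Such genes separate more easily in a ratio to *vit-2*, so the share over all other genes is not a like comparison. Within the near-identical pair, the ratio of *vit-3* to *vit-4* ran from 0.50 to 1.08 over all libraries.

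**Figure D5:**
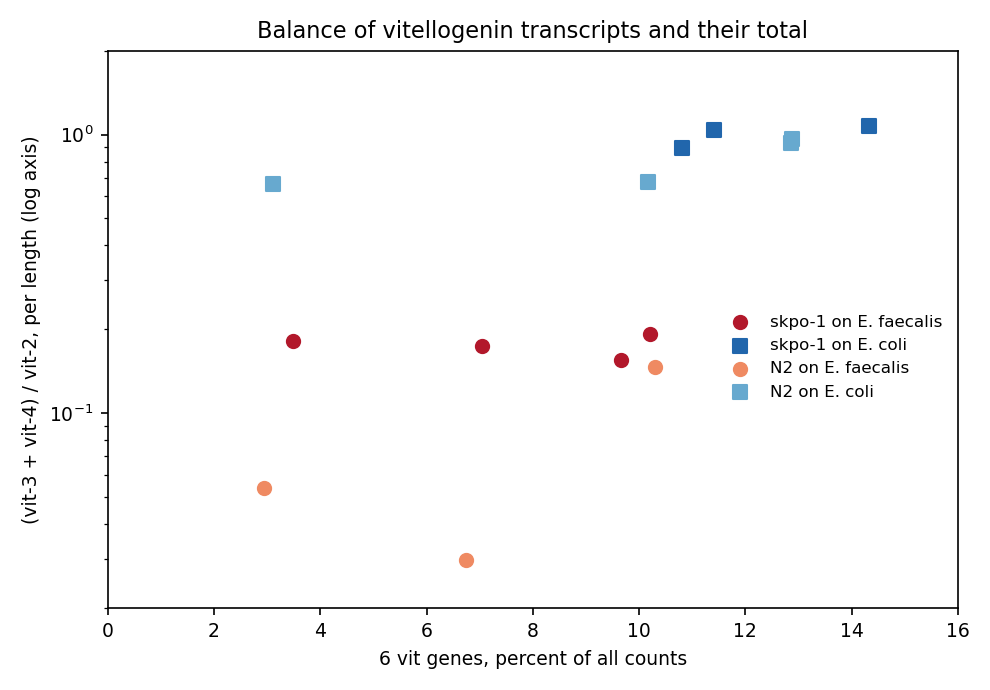
Each point is 1 library, with the percentage of all counts on *vit-1* to *vit-6* on the x axis and the per-length ratio of *vit-3* plus *vit-4* to *vit-2* on a log y axis. Libraries on *E. faecalis* (circles) lie at 0.030 to 0.193 and libraries on *E. coli* (squares) at 0.666 to 1.07, and these ranges do not meet at any total. Among libraries on *E. coli* of 1 genotype the ratio is higher where the total is higher.

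Of the listed genes that control or process yolk, none fell as far as *vit-1*, *vit-3* and *vit-4* did. Of 10 regulators of vitellogenin transcription, among them the intestinal GATA factor *elt-2*, which is also on the intestinal list, and the homeobox genes *unc-62* and *ceh-60*, 1 was called higher and none lower in *skpo-1*, with a median log2 fold change of 0.23, and 2 were called higher and none lower in N2, with a median of 0.43. Of all genes tested, 10% were called higher in *skpo-1* and 19.2% in N2, so these counts were near the background. In *skpo-1*, 4 of the 10 regulators had a log2 fold change below 0, down to -0.86, whereas in N2 all 10 were above 0. The zinc finger gene *pqm-1* rose on *E. faecalis* to 56.0 ± 5.10 CPM in *skpo-1*, against 18.5 ± 0.898 CPM on *E. coli* (log2 fold change 1.60, adjusted p = 0.000598, edgeR), and to 64.8 ± 15.8 CPM in N2, against 20.2 ± 6.54 CPM on *E. coli* (1.67, adjusted p = 0.000197, edgeR). *mab-3*, known to repress vitellogenin genes in males, was called in N2 at levels below 2 CPM (1.24, adjusted p = 0.0318, edgeR), a call that was lost without *E. faecalis* replicate 2 or 3 or *E. coli* replicate 3 or 4 (adjusted p 0.0587 to 0.158), with a replicate block (0.0529) and when the N2 groups alone were fitted (0.0882). None of 13 genes of lipoprotein assembly and endocytic uptake, such as *dsc-4*, *rab-5* and the clathrin gene *chc-1*, was called in either genotype by edgeR (4 in *skpo-1* and 0 in N2 had an unadjusted p below 0.05), with medians of -0.30 in *skpo-1* and -0.22 in N2. In *skpo-1*, 12 of the 13 had a log2 fold change below 0, down to -0.96. There 1 was lower at an adjusted p below 0.05 (edgeR), short of the fold for a call. In N2, 10 were below 0, down to -0.59, and none passed at that p. Without *skpo-1* on *E. faecalis* replicate 3, 1 of the 13 was called lower in *skpo-1*. The median of this list turned to 0.06 in each genotype when counts were scaled by library size alone.

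Oocyte and intestine genes were set beside the yolk genes because uptake and synthesis happen in these cells. Of 16 oocyte and eggshell genes none was called by edgeR (6 in *skpo-1* and 7 in N2 had an unadjusted p below 0.05), with a median log2 fold change of -0.46 in *skpo-1* and -0.49 in N2. At an adjusted p below 0.05 without the fold requirement, 1 was lower in *skpo-1* (the RNA-binding protein gene *spn-4*, -0.67, adjusted p = 0.0278, edgeR) and 5 were lower in N2 (*spn-4*, *oma-2*, *egg-1*, *egg-2* and *egg-3*), while without N2 on *E. faecalis* replicate 1 there was 1 call in N2 and none passed when counts were scaled by library size alone. Of 8 intestinal genes, 2 were called higher in *skpo-1* (*vha-6* and *ifc-2*) and 3 in N2 (*ifb-2*, *ifc-2* and *vha-6*), and none was called lower, against the 10% and 19.2% of all genes called higher. The peptide transporter gene *pept-1* of the same list was lower at an adjusted p below 0.05, short of the fold for a call, in *skpo-1* (log2 fold change -0.53, adjusted p = 0.0450, edgeR) and in N2 (-0.60, 0.0172), and did not pass when counts were scaled by library size alone. The subunit gene of the intestinal proton pump, *vha-6*, had 653 ± 51.5 CPM in *skpo-1* worms on *E. faecalis*, against 252 ± 29.9 CPM on *E. coli* (log2 fold change 1.37), and 528 ± 91.6 CPM in N2 on *E. faecalis*, against 255 ± 61.3 CPM on *E. coli* (1.05). The *vha-6* call in N2 was lost on the fold without *E. faecalis* replicate 1 (0.88) or *E. coli* replicate 2 (0.89), with median-of-ratios scaling (0.993) and with DESeq2 (0.991), and that of *ifc-2* in *skpo-1*, at 1.01, fell below the fold with any of 7 libraries left out (0.900 to 0.995), with median-of-ratios scaling (0.950), with TMM factors computed without the members (0.992) and with DESeq2 (0.948).

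The 3 libraries with the lowest vitellogenin totals were also the lowest in oocyte genes, and 2 of them were the lowest in muscle genes. The sum of *vit-1* to *vit-6* was 26204 CPM in *skpo-1* on *E. faecalis* replicate 4, 26582 CPM in N2 on *E. faecalis* replicate 3 and 27578 CPM in N2 on *E. coli* replicate 2, and 60587 to 170356 CPM in the other 11. The sum of 16 oocyte and eggshell genes was 9683, 10669 and 10280 CPM in these libraries, in the same order, and 11706 to 21664 CPM elsewhere. The sum of 3 body wall muscle genes was 480, 1861 and 794 CPM, and 1718 to 4385 CPM elsewhere. The 8 intestinal genes summed to 1916, 1765 and 803 CPM, where the other libraries on *E. faecalis* had 1848 to 2303 CPM and the others on *E. coli* 1125 to 1382 CPM. The part of these tissue differences in the vitellogenin levels was not tested.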

How the data were processed

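Per the labels and the study's methods, reads (75-nt paired-end) were trimmed by the authors, who quantified genes with salmon 1.2.1 against the WBcel235 transcriptome, and deposited the estimated counts rounded to whole numbers. They also deposited a normalized signal made from the counts with DESeq2 1.26.0, which entered only alternatives for the vitellogenin share and *rme-2*. Genes were kept by edgeR's filterByExpr (minimum count 10, minimum total 15). All 14 libraries entered 1 fit, scaled by TMM, for the quasi-likelihood test of edgeR (R 4.3.3, edgeR 4.0.16, limma 3.58.1), with Benjamini-Hochberg adjustment. DESeq2 1.42.0 was an alternative. The standard error was the log2 fold change divided by the square root of F. TPM used exon lengths of the Ensembl annotation, which holds 21896 of the 21982 identifiers, and 19793 had a symbol. Common biological variation was 0.293, so replicates and not the 15174830 to 36682565 counts per library set the precision. The fit was tested on simulated data. Sequences were not used here. The members and gene lists were chosen with earlier results of these data known. Named genes were all 7 members, the called genes of each list, up to 4 others of a list by smallest adjusted p, and the 5 genes most like *rme-2* and the vitellogenin sum.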

Additional observations from a re-analysis of the deposited data

Results flagged for a closer look

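Of 26 groups of 4 libraries examined with Dixon's test, 3 held a library far from the rest, and chance flags about 1 group in 20. N2 on *E. coli* replicate 2 had 7878 CPM of *vit-2* and 579 CPM of *rme-2*, each far below its 3 group mates. *skpo-1* on *E. faecalis* replicate 4 had a per-length ratio of *vit-6* to *vit-2* of 0.658, below the 0.796 to 0.821 of the other 3.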

How the results depend on the processing

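Over the 7 members, 5 comparisons and all alternatives, 746 of 763 values stayed on their side of the thresholds, 10 calls were lost, 7 were gained and no called value reversed. The count of members called was 3 in each response and changed to 1 in *skpo-1* and 1 in N2 when the near-identical copies were summed, since *vit-3* and *vit-4* then make 1 feature and *vit-1* is summed with *vit-2*. With 1 library left out, it ran from 1 to 4 members in *skpo-1* and from 2 to 4 in N2. *vit-5* was also called with DESeq2's Wald test, in *skpo-1* (log2 fold change -1.48, adjusted p = 0.0477) and in N2 (-1.71, adjusted p = 0.0136), in *skpo-1* when only its own groups were fitted (-1.43, adjusted p = 0.0260, edgeR), and in N2 without *E. faecalis* replicate 1 (-2.50, adjusted p = 0.0140, edgeR) or *skpo-1* on *E. faecalis* replicate 4 (adjusted p = 0.0491). Scaling by library size alone moved the median log2 fold change of all genes to 0.48 in *skpo-1* and 0.26 in N2, and *vit-2* in *skpo-1* to 0.14. Same-numbered libraries of different groups deviated together in 9 of 19 pairs (r above 0.1), so the numbers were not taken as pairs, and with a replicate block the members called were again 3 in each response and 0 in the other comparisons. The cause of these changes was not tested.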

Other observations

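Genes whose levels followed the receptor and the yolk proteins most closely were listed by Pearson correlation of log2 CPM over the 14 libraries, which share bacterium, genotype and replicate differences, and no p is given. For *rme-2* they were the Argonaute gene *wago-1* (r = 0.982), the P granule gene *deps-1* (0.978), the Argonaute gene *ppw-1* (0.978), *gfat-1* (0.977) and *pygl-1* (0.976). For the sum of *vit-1* to *vit-6* they were *ebax-1* (0.962), *rme-6* (0.961), an activator of the endocytic GTPase RAB-5 that is itself known for a part in yolk uptake, *acs-13* (0.958), C46H3.2 (0.955) and *eat-20* (0.951).

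Transcripts of other tissues were set beside those of yolk. Of 28 major sperm protein genes tested, 0 were called in *skpo-1* by edgeR's quasi-likelihood test (1 had an unadjusted p below 0.05, and DESeq2 called 0), with a median log2 fold change of 0.06. In N2, 25 were called higher on *E. faecalis*, where 19.2% of all genes were, with a median of 1.64, but without N2 on *E. faecalis* replicate 3 the count was 4. That library had 539 CPM of summed sperm genes, against 209 and 262 CPM in its group mates. The difference between the genotypes was called for 0 of the 28 (19 had an unadjusted p below 0.05, and DESeq2 called 0). Of 3 body wall muscle genes, edgeR called none in either genotype (2 in *skpo-1* and 0 in N2 had an unadjusted p below 0.05), while DESeq2 called 2 lower in *skpo-1*, as edgeR did without N2 on *E. coli* replicate 2. None of 4 gonadal sheath genes was called by edgeR (1 in *skpo-1* and 3 in N2 had an unadjusted p below 0.05). At an adjusted p below 0.05 without the fold requirement, 2 were higher and 1 was lower in N2 (edgeR). When counts were scaled by library size alone, 1 was called higher in N2. Of 3 neuronal genes, edgeR called none in *skpo-1* (1 had an unadjusted p below 0.05) and 2 higher in N2, *rab-3* (1.19) and *rgef-1* (1.15), and both calls were lost without N2 on *E. faecalis* replicate 2 (0.81 and 0.93). Leaving out replicate 3 of N2 on *E. faecalis*, or replicate 1, 3 or 4 of N2 on *E. coli*, also ended the *rgef-1* call (adjusted p 0.0512 to 0.0660, edgeR). The remaining gene of this list, *unc-119*, went the other way in N2 (-0.45) and was not called. With DESeq2 it was lower in N2 at an adjusted p below 0.05, short of the fold for a call.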
